A study of Mus musculus with 121 samples.

Results

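The expression of 8 genes that handle oxidants, heavy metals and iron was followed in transplanted mouse tumours after gamma and carbon ion irradiation. The genes were Mt1, Mt2, Slc7a11, Hmox1, Nqo1, Gclm, Txnrd1 and Tfrc. They were chosen by name, as the array probes whose annotated symbol is one of these, taking for each gene the brightest probe with a value on at least 90% of arrays. Each symbol had 1 such probe, and all 8 were among the 12962 genes tested. Mt1, Slc7a11, Txnrd1 and Tfrc lacked a value on 1 of 121 arrays each and the others on none.

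The tumours grew in the hind legs of male C3H/HeMs mice, which received local irradiation in a single dose. The labels name 6 tumours, of which nfsa is a spontaneous fibrosarcoma, another a radiation-induced fibrosarcoma, mmca and mca4 are mammary carcinomas, and scc7 and nrs1 are labelled as squamous cell carcinomas. RNA of the dissected tumour was hybridised to 1-colour CodeLink arrays, 81 for the gamma ray experiment and 40 for the carbon ion experiment, with 2 or 3 arrays in each of 54 groups. The series asks which genes respond to radiation in the 6 tumours.

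In the gamma experiment 4 tumours (both fibrosarcomas, mmca and mca4) had unirradiated arrays of day 1 and arrays of day 1 after 30, 50 and 70 Gy, and mmca had further unirradiated arrays of day 9. Later gamma arrays came from the radiation-induced fibrosarcoma at days 8 and 16 (30 Gy) and 22 (50 Gy), from mmca at days 9 (30 Gy) and 19 (50 Gy), from nfsa at days 4 and 9 (30 and 50 Gy), and from mca4 at days 11 (30 Gy), 25 and 41 (50 Gy). For scc7 there were arrays of days 8 (30 Gy), 23 and 35 (50 Gy), and for nrs1 of days 8 (30 Gy) and 15 (50 Gy). Carbon ions were given as 30 Gy. In mmca and mca4 arrays without irradiation (hour 0) were followed by arrays of hour 6 and of days 1, 3, 5 and 20, while the other tumours had arrays of day 5 and of day 20 (day 42 for scc7). Unirradiated arrays of scc7 and nrs1, and unirradiated carbon arrays of the 2 fibrosarcomas, were not analysed here, so these groups were compared only with each other.

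As background, cells meet oxidants such as those formed by ionising radiation with several linked systems. Metallothioneins (Mt1, Mt2) are small cysteine-rich proteins that bind zinc and copper and are switched on by the metal-sensing factor MTF1. Slc7a11 imports cystine, from which the cell makes glutathione with the help of Gclm, a subunit of glutamate-cysteine ligase. Txnrd1, thioredoxin reductase, keeps thioredoxin reduced, Nqo1 reduces quinones, and Hmox1 breaks down heme into biliverdin, carbon monoxide and iron. Slc7a11, Hmox1, Nqo1, Gclm and Txnrd1 are known targets of the transcription factor NRF2, which binds antioxidant response elements. Tfrc, the transferrin receptor, takes up iron and is abundant on dividing cells.

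The windows of 250 bases before the annotated start of Mt1, Mt2 and Gclm are shown because they hold the short sequence cores that MTF1 and NRF2 are known to bind. Sequences are from RefSeq on mouse build GRCm38.p6, whose promoter table held 7 of the 8 genes (all but Hmox1). Each is written 5′ to 3′ on the gene's strand, in lower case, with matches to the metal response element core (TGCACNC or TGCGCNC) or the antioxidant response element core (TGACNNNGC) on either strand in capitals.
Mt1, chr8:94178839-94179088, plus strand: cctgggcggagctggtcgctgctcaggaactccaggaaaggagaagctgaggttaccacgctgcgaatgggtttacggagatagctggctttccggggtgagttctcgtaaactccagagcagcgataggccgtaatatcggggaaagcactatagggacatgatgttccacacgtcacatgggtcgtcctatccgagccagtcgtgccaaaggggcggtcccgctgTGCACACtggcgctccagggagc
Mt2, chr8:94172368-94172617, plus strand: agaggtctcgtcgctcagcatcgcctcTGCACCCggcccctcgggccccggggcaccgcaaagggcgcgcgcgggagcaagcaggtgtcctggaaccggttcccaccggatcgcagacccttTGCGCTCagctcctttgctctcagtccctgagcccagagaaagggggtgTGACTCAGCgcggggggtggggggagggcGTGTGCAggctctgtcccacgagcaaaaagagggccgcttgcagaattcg
Gclm, chr3:122245307-122245556, plus strand: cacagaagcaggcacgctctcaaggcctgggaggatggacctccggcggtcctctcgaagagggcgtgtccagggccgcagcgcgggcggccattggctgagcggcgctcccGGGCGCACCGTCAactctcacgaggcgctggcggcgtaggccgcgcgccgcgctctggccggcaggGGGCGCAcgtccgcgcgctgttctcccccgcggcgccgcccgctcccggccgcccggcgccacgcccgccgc
Mt2 held 3 metal cores and 1 antioxidant core, Mt1 held 1 metal core, and Gclm held 1 antioxidant core and 2 metal cores, 1 of which overlaps the antioxidant core. Of the other genes, Txnrd1 had an antioxidant core before 1 of its 3 starts, Tfrc had 2 metal cores that overlap each other before 1 of its 2 starts, and Nqo1 and Slc7a11 had neither core in this window. Among all 32851 promoters of the table, 10.2% held an antioxidant core and 21.4% a metal core in the same window. A match is a description of these letters and does not show a bound site.

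Intensities were analysed on the log2 scale, where a change of 1 is a 2-fold change. The median intensity of the authors' values lay between 1.04 and 1.85 on the arrays. Values were missing for 9.99 to 18.6% of probes on gamma arrays and for 0.541 to 4.92% on carbon arrays. Without irradiation mmca and mca4 differed in 51.8% of genes on gamma arrays but in 2.71% on carbon arrays, and across 12900 genes the 2 differences correlated at r = -0.064. The carbon arrays thus did not bear out the labels mmca and mca4 as the gamma arrays gave them, whether these labels are right was not tested, and both names below are those of the labels. All arrays labelled scc7 were low in the epithelial genes Epcam (group means of -1.15 to -0.51) and Krt14 (-2.18 to -1.21), against 6.80 to 7.25 and 8.29 to 9.10 in nrs1, so these markers did not bear out its squamous label. Setting every missing value to a floor and then applying quantile normalization ended 125 of 315 calls of the 8 genes, 107 of them of Mt1, Slc7a11, Txnrd1 and Tfrc, and is given with the other alternatives in the closing section. The labels do not say whether arrays of a group come from separate animals, so the p values rest on a spread between arrays that may be technical. A gene is called higher or lower at an adjusted p under 0.05 in a limma model fitted to all 12962 genes.

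Before irradiation the 4 tumours of the gamma experiment differed in 3 to 6 of the 8 genes, depending on the pair. Between the radiation-induced fibrosarcoma and mmca 6 genes passed (67.9% of all genes), between the radiation-induced fibrosarcoma and mca4 3 (51.7%), and in the other pairs 5 (45.5% for the 2 fibrosarcomas, 65.0% for mmca and nfsa, 51.8% for mmca and mca4, 61.2% for nfsa and mca4). Mt1 was bright everywhere, with log2 intensities of 7.87 and 7.88 in the radiation-induced fibrosarcoma, 7.73 and 7.93 in mmca, 7.66 and 7.75 in mca4 and 6.75 and 7.08 in nfsa, and on no array were more than 4.78% of probes brighter. Nfsa was lowest, and its 2 arrays did not overlap those of the others. Mt2 was 5.77 and 6.03 in the radiation-induced fibrosarcoma and 4.96 and 5.94 in mca4, against 2.93 and 3.06 in mmca and 2.15 and 2.43 in nfsa. These 4 arrays of the radiation-induced fibrosarcoma and mca4 were the highest Mt2 values of all 121 arrays, the next being 4.71 in nrs1. The unirradiated carbon arrays labelled mca4 gave 2.91 and 3.02 for Mt2 and 7.87 and 7.80 for Mt1, so the high Mt2 level of the gamma controls was not seen on them, and what set it was not tested.

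Hmox1, which degrades heme, was high in both fibrosarcomas, with 5.84 and 5.82 in the radiation-induced fibrosarcoma and 6.21 and 6.20 in nfsa against 3.87 and 3.84 in mca4 and 3.23 and 3.41 in mmca. Mmca differed from nfsa by -2.88 ± 0.191 (SE, adjusted p = 9.15e-23), mmca minus nfsa, while the 2 fibrosarcomas did not pass the test (-0.38, adjusted p = 0.0981, the radiation-induced fibrosarcoma minus nfsa). Macrophage markers, of which 12 of 14 were tested, averaged 5.50 and 5.38 to 5.51 in the fibrosarcomas, 4.31 to 4.35 in mca4 and 2.59 to 3.10 in mmca. Their part in the Hmox1 level was not tested, and in these bulk samples fewer cells of a type and less RNA per cell cannot be told apart.

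Nqo1, the quinone reductase, was lowest in the radiation-induced fibrosarcoma (-1.62 and -1.61), followed by nfsa (0.28 and 0.84), mca4 (0.86 and 0.87) and mmca (1.89 and 1.88). Nfsa and mca4 are neighbours in that order that did not pass the test (-0.30, adjusted p = 0.137, nfsa minus mca4). Tfrc was highest in mmca (3.89 and 3.69) and lay at 2.17 and 2.63 in nfsa, 2.15 and 1.93 in the radiation-induced fibrosarcoma and 1.97 and 1.96 in mca4. Txnrd1 was 4.33 and 4.69 in nfsa and 4.36 and 4.34 in mmca, and lower in the radiation-induced fibrosarcoma (3.65 and 3.49) and mca4 (3.59 and 3.70). For Gclm the order was nfsa (3.32 and 3.38), mmca (2.89 and 2.93), mca4 (2.95 and 2.61) and the radiation-induced fibrosarcoma (2.12 and 2.11), with mmca and mca4 overlapping. Slc7a11 was 1.50 and 0.88 in nfsa, 1.33 and 1.16 in the radiation-induced fibrosarcoma, 1.79 and 1.53 in mmca and 2.12 and 1.66 in mca4. Its fibrosarcoma arrays lay below those of the mammary carcinomas, but no pair of tumours passed the test (adjusted p = 0.0607 to 0.909). Over all arrays of the series, up to 80.8% of probes were brighter than Nqo1 and up to 71.6% brighter than Slc7a11, so their lowest values were dim.

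The first comparison asked how the genes responded 1 day after gamma rays, with 6 irradiated arrays (2 each of 30, 50 and 70 Gy) against 2 unirradiated arrays in each tumour. Tfrc fell in 3 of the 4 tumours, while Mt2 fell in the radiation-induced fibrosarcoma and mca4, and Slc7a11 fell in nfsa. In the mean of the 4 tumours 5 of the 8 genes passed the test, Hmox1 and Nqo1 upward and Mt2, Tfrc and Slc7a11 downward, against 59.4% of all genes, so the share called was near the background. In single tumours 4 of 8 passed in the radiation-induced fibrosarcoma, 2 in mmca, 4 in nfsa and 2 in mca4, against 50.9, 33.1, 29.0 and 42.8% of all genes. With each group averaged to 1 value, which treats tumours and doses as the replicates, the fall of Tfrc was the 1 call left of the 5. The change differed among the 4 tumours by the F test of the model for 7 of 8 genes (all but Gclm), against 55.9% of all genes.

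For Tfrc, the iron uptake receptor, mmca fell from 3.89 and 3.69 without irradiation to 2.16 and 2.12 at 30 Gy, 1.92 and 1.92 at 50 Gy and 2.21 and 2.14 at 70 Gy, a change of -1.71 ± 0.189 (SE, adjusted p = 5.08e-11). In the radiation-induced fibrosarcoma the irradiated arrays lay at 0.57 to 1.31 against 2.15 and 1.93 (-1.16 ± 0.189 SE, adjusted p = 3.65e-07). Nfsa gave 0.87 to 1.70 against 2.17 and 2.63 (-1.08 ± 0.189 SE, adjusted p = 8.96e-06). In these 3 tumours the irradiated and unirradiated arrays did not overlap. Mca4 arrays did overlap, at 1.58 to 2.18 against 1.97 and 1.96 (-0.13, adjusted p = 0.602, interval -0.51 to 0.24). The mean over tumours was -1.02 ± 0.0943 (SE, adjusted p = 3.56e-15), with adjusted p = 0.0142 when each group counted as 1 value, and the F test of a difference among tumours gave adjusted p = 1.61e-05.

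Mitosis genes, of which 9 of 10 were tested, did not fall with Tfrc in mmca on day 1. Their mean level in mmca was 2.92 to 2.97 without irradiation and 2.92 to 3.01, 3.29 to 3.35 and 3.62 to 3.65 at 30, 50 and 70 Gy, and 5 of 9 were higher and none lower in that tumour (33.1% of all genes called in either direction). The radiation-induced fibrosarcoma had mean levels of 3.11 to 3.14 without irradiation, 2.43 to 2.44 at 30 Gy, 2.0 to 2.21 at 50 Gy and 2.88 to 2.91 at 70 Gy. In that tumour the irradiated arrays lay below the controls in both Tfrc and the mitosis genes. The part of dividing cells in the fall of Tfrc was not tested, and mitosis levels of nfsa and mca4 are not described here.

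Mt2, the metallothionein with the high control values, fell in the radiation-induced fibrosarcoma from 5.77 and 6.03 to 3.60 and 3.38 at 30 Gy, 3.47 and 3.38 at 50 Gy and 3.31 and 3.45 at 70 Gy. The change was -2.47 ± 0.212 (SE, adjusted p = 3.91e-16), or 5.54-fold lower. In mca4 it fell from 4.96 and 5.94 to between 2.65 and 3.25 (-2.42 ± 0.212 SE, adjusted p = 2.79e-15, -2.91 to -1.94 with 1 array left out). In neither tumour did irradiated and unirradiated arrays overlap, and the arrays of 30, 50 and 70 Gy overlapped in the radiation-induced fibrosarcoma. Both falls are from controls that held the highest Mt2 values of all 121 arrays. The unirradiated carbon arrays labelled mca4 (2.91 and 3.02) lay within the range of the irradiated gamma arrays of mca4. What set the high controls was not tested. Mmca gave -0.045 (adjusted p = 0.897) and nfsa 0.50 (adjusted p = 0.068). The mean over the 4 tumours, -1.11 ± 0.106 (SE, adjusted p = 1.21e-14), lost its call with 1 value per group (adjusted p = 0.0778).

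With the doses averaged, Mt1, the other metallothionein, passed in nfsa alone on the same arrays. Its mean change was 0.018 (adjusted p = 0.862), with an interval of -0.14 to 0.18. This mean hides opposite directions by dose, with 0.37 (adjusted p = 0.00084) at 30 Gy and -0.33 (adjusted p = 0.00288) at 70 Gy. In each tumour both 30 Gy arrays lay above the controls, and in all but nfsa both 70 Gy arrays lay below. Mt1 at 70 Gy turned sign after quantile normalization. In the radiation-induced fibrosarcoma its irradiated arrays lay at 7.24 to 8.00 around the control values of 7.87 and 7.88, and the change was -0.21 (adjusted p = 0.281). Nfsa was called higher (0.45 ± 0.159 SE, adjusted p = 0.0269), but the adjusted p was 0.355 without unirradiated replicate 1.

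Slc7a11, the cystine importer, fell in nfsa from 1.50 and 0.88 to -0.67 and -0.29 at 30 Gy, -0.53 and -0.50 at 50 Gy and -1.07 and -1.02 at 70 Gy. This change of -1.87 ± 0.273 (SE, adjusted p = 2.69e-07), 3.65-fold, was larger than the spread of the 2 controls. The other tumours gave -0.074 (the radiation-induced fibrosarcoma), 0.48 (mmca) and -0.38 (mca4), none of which passed. The mean of -0.46 ± 0.136 (SE, adjusted p = 0.00268) was not called with 1 value per group (adjusted p = 0.248).

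Hmox1 was higher on day 1 in the radiation-induced fibrosarcoma, where irradiated arrays lay at 6.27 to 6.73 against 5.84 and 5.82 (0.61 ± 0.156 SE, adjusted p = 0.000679). In mmca they lay at 3.83 to 4.24 against 3.23 and 3.41 (0.67 ± 0.156 SE, adjusted p = 0.000541). Neither tumour's groups overlapped. Mca4 and nfsa did not pass (0.27 and -0.24), and the F test of a difference between tumours gave adjusted p = 0.00106. In mmca 10 of 12 macrophage markers also rose (33.1% of all genes called in either direction), with array means of 2.59 to 3.10 without irradiation and 3.57 to 3.64, 4.03 to 4.07 and 3.70 to 3.71 at the 3 doses, and their part in the rise was not tested.

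Of the other NRF2 targets, Nqo1 rose in mca4 from 0.86 and 0.87 to between 1.05 and 1.87 (0.61 ± 0.147 SE, adjusted p = 0.000531). The radiation-induced fibrosarcoma gave 0.44 ± 0.147 (SE, adjusted p = 0.00997), a call lost without unirradiated replicate 1 (adjusted p = 0.0708). Gclm passed in no tumour, with changes of -0.0035 to 0.26, and it was the 1 gene of the 8 whose changes did not differ between tumours by the F test (adjusted p = 0.751). Txnrd1 gave -0.33 (adjusted p = 0.0113) in nfsa, which was not called without unirradiated replicate 2 (adjusted p = 0.496), and passed in no other tumour.

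**Figure D1:**
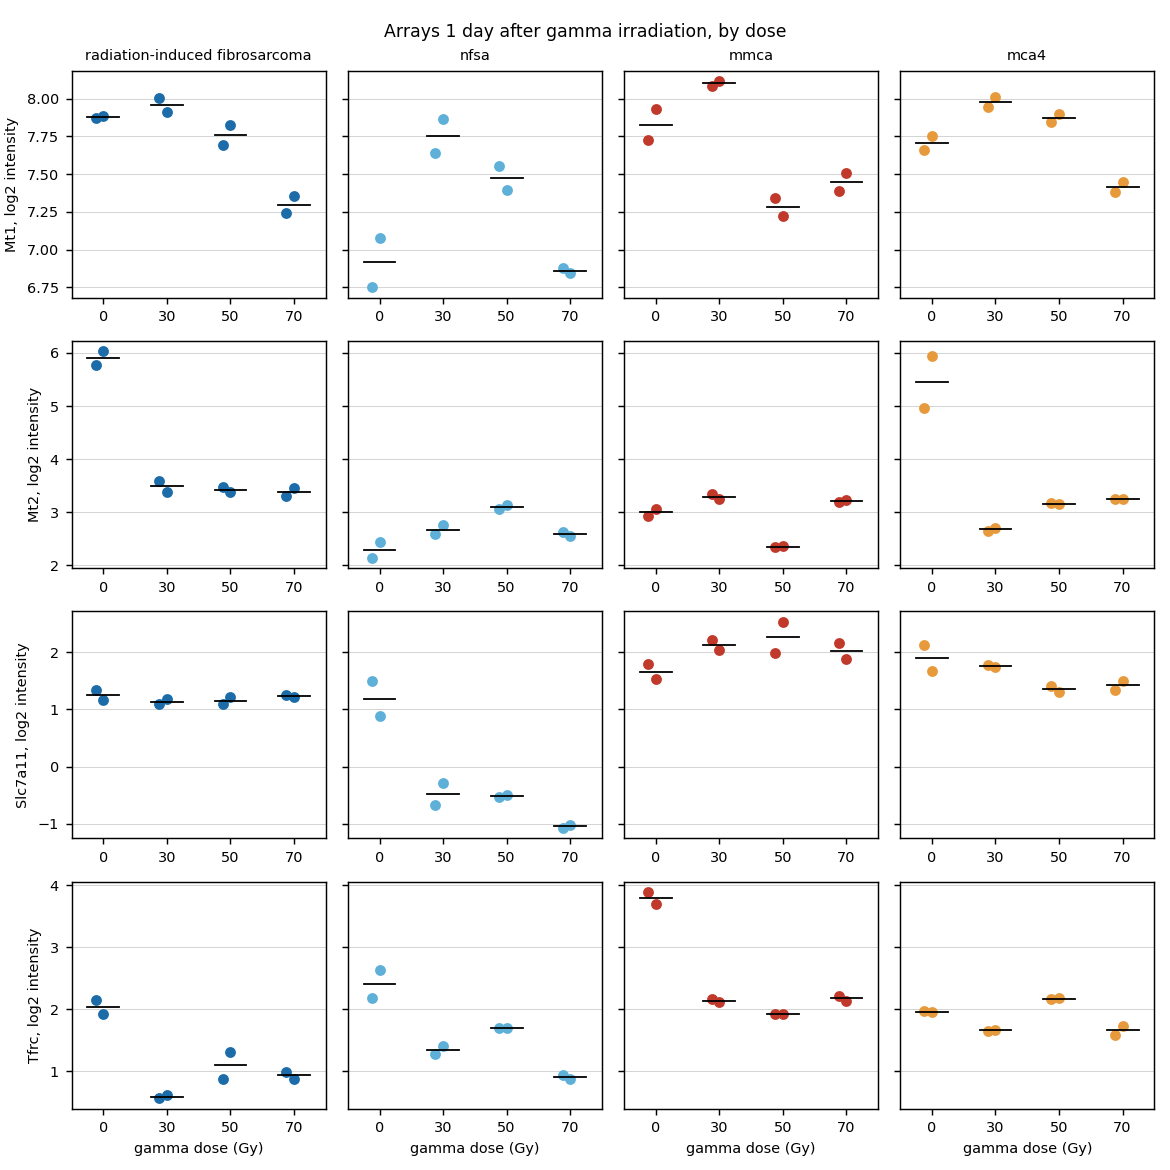
Log2 intensity of Mt1, Mt2, Slc7a11 and Tfrc (rows) on each array of day 1 in the gamma experiment, by dose in Gy and tumour (columns), with points for arrays and a line for the group mean. Unirradiated Mt2 stood at 5.77 to 6.03 in the radiation-induced fibrosarcoma and 4.96 to 5.94 in mca4, above every irradiated array of those tumours, while irradiated Tfrc in mmca lay at 1.92 to 2.21, below its controls of day 1.

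Whether dose mattered on day 1 was asked by setting 70 Gy against 30 Gy in the mean of the 4 tumours (8 arrays each). In that mean the redox enzymes Nqo1, Txnrd1 and Gclm were higher at 70 than at 30 Gy, and Mt1 and Hmox1 were called lower, which makes 5 of 8 genes against 50.2% of all genes. Against 0 Gy, 5 of 8 genes passed at 30 Gy, 6 at 50 Gy and 7 at 70 Gy, with 63.1, 43.6 and 61.0% of all genes. Nqo1 moved from -0.05 (adjusted p = 0.641) at 30 Gy to 0.23 (adjusted p = 0.0341) at 50 Gy, lost without unirradiated nfsa replicate 1, and 0.68 (adjusted p = 9.28e-10) at 70 Gy. Its difference between 70 and 30 Gy was 0.73 ± 0.0898 (SE, adjusted p = 2.05e-10). Nqo1 was higher at 70 than at 30 Gy on all arrays of each tumour. For Txnrd1 the changes were -0.32, -0.31 and 0.35, all called, and the difference was 0.67 ± 0.0666 (SE, adjusted p = 2.52e-13). These means hide opposite directions among tumours. At 30 Gy Txnrd1 was 3.66 and 3.35 in mmca and 3.59 and 3.81 in nfsa, below the controls, but 4.34 and 4.19 in mca4, above them. At 50 Gy it was below the controls in the radiation-induced fibrosarcoma (2.53 and 2.91) and mca4 (3.38 and 3.20) and within or next to them in mmca and nfsa. At 70 Gy mca4, with 1 value (4.07), was below its 30 Gy arrays, while the other 3 tumours were above theirs. Gclm was 0.15, -0.20 and 0.47, of which 70 Gy alone was called, with a difference of 0.32 ± 0.107 (SE, adjusted p = 0.0105), and mca4 again went the other way (2.77 and 2.93 at 70 Gy against 3.19 and 3.13 at 30 Gy).

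This dose comparison depended on the scaling of the arrays. Quantile normalization moved the median of all genes between 70 and 30 Gy by 0.18, and the share of calls that were higher went from 47.3% to 84.8%. Nqo1 and Txnrd1 stayed higher (0.91 and 0.83). Mt1, which gave -0.69 ± 0.0974 (SE, adjusted p = 1.14e-08) as deposited, was at -0.066 (adjusted p = 0.514), and Hmox1, at -0.33 (adjusted p = 0.00274), turned to 0.06 (adjusted p = 0.574). Txnrd1 lacked 1 of its 8 values at 70 Gy, and setting missing values to the floor before quantile normalization gave -0.15. Mt2, Tfrc and Slc7a11 did not differ between 70 and 30 Gy by the test (0.078, -0.013 and -0.23, intervals of -0.18 to 0.34, -0.24 to 0.22 and -0.56 to 0.10).

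**Figure D2:**
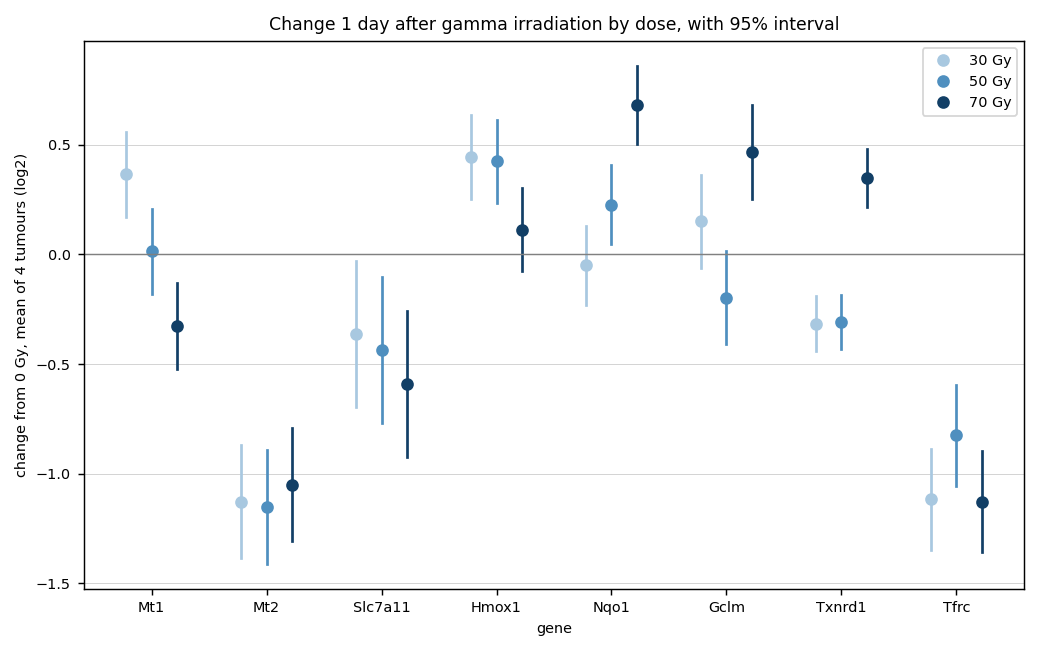
Change of each gene from 0 Gy on day 1 after 30, 50 and 70 Gy of gamma rays, as the mean of 4 tumours on the log2 scale with its 95% interval. Nqo1 goes from -0.05 at 30 Gy to 0.68 at 70 Gy, while Mt2 stays between -1.15 and -1.05.

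The next comparison took arrays of days 8 to 25 after 30 or 50 Gy against the unirradiated arrays of the same tumour (those of day 9 for mmca). The other tumours had controls of day 1 only, so irradiation and the time of growth cannot be told apart there. The same holds for mmca on day 19. Outside nfsa the 30 and 50 Gy arrays were also of different days. The radiation-induced fibrosarcoma and mca4 were alike in direction: Nqo1, Gclm and Txnrd1 were higher in both, and Mt2 was lower than the unusually high controls described above. In mmca Hmox1 rose and Tfrc fell, and in nfsa Slc7a11, Mt2, Txnrd1, Hmox1 and Tfrc were lower. The nfsa calls of Mt2 and Tfrc were lost without unirradiated replicate 2 (adjusted p = 0.0525 and 0.123). The calls numbered 4 of 8 in the radiation-induced fibrosarcoma, 3 in mmca, 6 in nfsa and 4 in mca4, against 67.7, 42.4, 57.5 and 63.7% of all genes. In the mean of the 4 tumours 6 of 8 genes passed, against 73.6% of all genes. The called means were Mt2 (-1.93), Gclm (0.55), Nqo1 (0.38), Tfrc (-0.35), Hmox1 (0.26, adjusted p = 0.0522 without mmca control replicate 1 of day 9) and Txnrd1 (0.24). Mt2 and Gclm were the 2 left with 1 value per group (adjusted p = 0.0221 and 0.00888). Again 7 of 8 genes differed among tumours by the F test (all but Gclm), against 79.3% of all genes.

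Nqo1 in the radiation-induced fibrosarcoma lay at -0.82, -1.24 and -1.04 on day 8, 0.18, -0.82 and -0.48 on day 16 and -0.79, -0.56 and -0.75 on day 22, against -1.62 and -1.61 without irradiation. Its change was 0.91 ± 0.14 (SE, adjusted p = 4.51e-08). In mca4 it lay at 1.62, 1.48 and 1.74 on day 11 and 1.87, 1.56 and 1.73 on day 25 against 0.86 and 0.87 (0.80 ± 0.147 SE, adjusted p = 2.43e-06). All late arrays were above the controls in both tumours. Mmca gave 0.15 (adjusted p = 0.447). Nfsa gave -0.33 (adjusted p = 0.0491), and -0.045 without unirradiated replicate 2 (adjusted p = 0.867).

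Txnrd1 rose on the same arrays, from 3.65 and 3.49 to between 4.11 and 4.72 in the radiation-induced fibrosarcoma (0.84 ± 0.0981 SE, adjusted p = 1.26e-11) and from 3.59 and 3.70 to between 4.30 and 4.77 in mca4 (0.83 ± 0.102 SE, adjusted p = 9.02e-11). In nfsa it fell from 4.33 and 4.69 to 3.99, 3.92 and 4.00 at 30 Gy and 3.85, 3.76 and 3.88 at 50 Gy (-0.61 ± 0.102 SE, adjusted p = 5.88e-07). Late and control arrays did not overlap in any of these tumours, and the F test between tumours gave adjusted p = 6.94e-16. Gclm, the glutathione synthesis subunit, was 2.75 to 3.30 in the radiation-induced fibrosarcoma against 2.12 and 2.11 (0.86 ± 0.167 SE, adjusted p = 7.24e-06). Mca4 gave 0.67 ± 0.174 (SE, adjusted p = 0.000614), with adjusted p = 0.0589 without unirradiated replicate 2. Mean changes of Gclm were upward in all 4 tumours, 0.29 in nfsa and 0.40 in mmca, for a mean of 0.55 ± 0.0863 (SE, adjusted p = 3.75e-08).

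Mt2 stayed low. In the radiation-induced fibrosarcoma it was 1.40, 1.22 and 1.34 on day 8, 3.41, 3.43 and 2.49 on day 16 and 3.35, 4.35 and 3.66 on day 22, against 5.77 and 6.03 without irradiation (-3.16 ± 0.203 SE, adjusted p = 2.01e-22). Day 8 was lowest. Mt1 on the same arrays was 6.67, 6.74 and 6.73 on day 8, 8.48, 8.56 and 7.96 on day 16 and 8.45, 8.78 and 8.60 on day 22, against 7.87 and 7.88. Both metallothioneins were thus lowest on day 8, but Mt1 was above its control level on days 16 and 22 and averaged to a change of 0.0093 (adjusted p = 0.96). In mca4 Mt2 lay at 1.79 to 2.37 (-3.38 ± 0.212 SE, adjusted p = 1.49e-22) while Mt1 gave -0.13 (adjusted p = 0.495). Mt1 in mmca gave -0.59 (adjusted p = 0.00238), with adjusted p = 0.309 without unirradiated replicate 2 of day 9 and 0.303 with quantile normalization, where the median of all genes shifted by -0.17.

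Hmox1 rose in mmca from 2.56 and 3.26 on unirradiated day 9 to 4.28, 4.02 and 4.49 at 30 Gy on day 9 and 4.29, 4.77 and 4.33 at 50 Gy on day 19. The change of 1.45 ± 0.156 (SE, adjusted p = 2.68e-12) is 2.73-fold, with no overlap. On these arrays 11 of 12 macrophage markers rose (list median 1.90 against 0.039 for all genes, of which 42.4% were called in either direction), with array means of 2.98 to 3.52 in the controls, 4.60 to 4.76 at 30 Gy and 5.27 to 5.60 at 50 Gy. Their part was not tested. Nfsa moved the other way, to 6.61, 5.77 and 5.56 at 30 Gy and 5.03, 5.31 and 5.44 at 50 Gy from 6.21 and 6.20 (-0.59 ± 0.156 SE, adjusted p = 0.000969), while its macrophage markers averaged 5.38 to 5.51 in the controls, 6.09 to 6.25 at 30 Gy and 6.20 to 6.59 at 50 Gy. A single nfsa array at 30 Gy exceeded its controls.

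Tfrc in mmca was 3.01, 2.43 and 2.54 at 30 Gy on day 9 and 1.42, 1.79 and 1.55 at 50 Gy on day 19, against 2.91 and 3.52 in the day 9 controls (-1.09 ± 0.189 SE, adjusted p = 1.98e-06). The day 19 arrays were the lower ones, and mitosis genes were also lower there (2.30 to 2.49 against 3.26 to 3.39). The radiation-induced fibrosarcoma and mca4 did not pass (0.33, adjusted p = 0.105 and 0.03, adjusted p = 0.899). Compared with day 1 at the same doses, late Tfrc was higher in the mean of the 4 tumours (0.47 ± 0.0737 SE, adjusted p = 4.12e-08), and all 8 genes passed in that comparison, against 75.3% of all genes. In the radiation-induced fibrosarcoma late Tfrc lay at 1.65 to 2.91 against 0.57 to 1.31 on day 1. In each of the other tumours late and day 1 arrays overlapped, so the mean rise came mostly from that 1 tumour. Slc7a11 stayed low in nfsa, with 1.16, 0.13 and -0.82 at 30 Gy and -0.37, -0.54 and 0.17 at 50 Gy against 1.50 and 0.88 (-1.23 ± 0.273 SE, adjusted p = 9.25e-05), and did not pass in the other tumours.

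**Figure D3:**
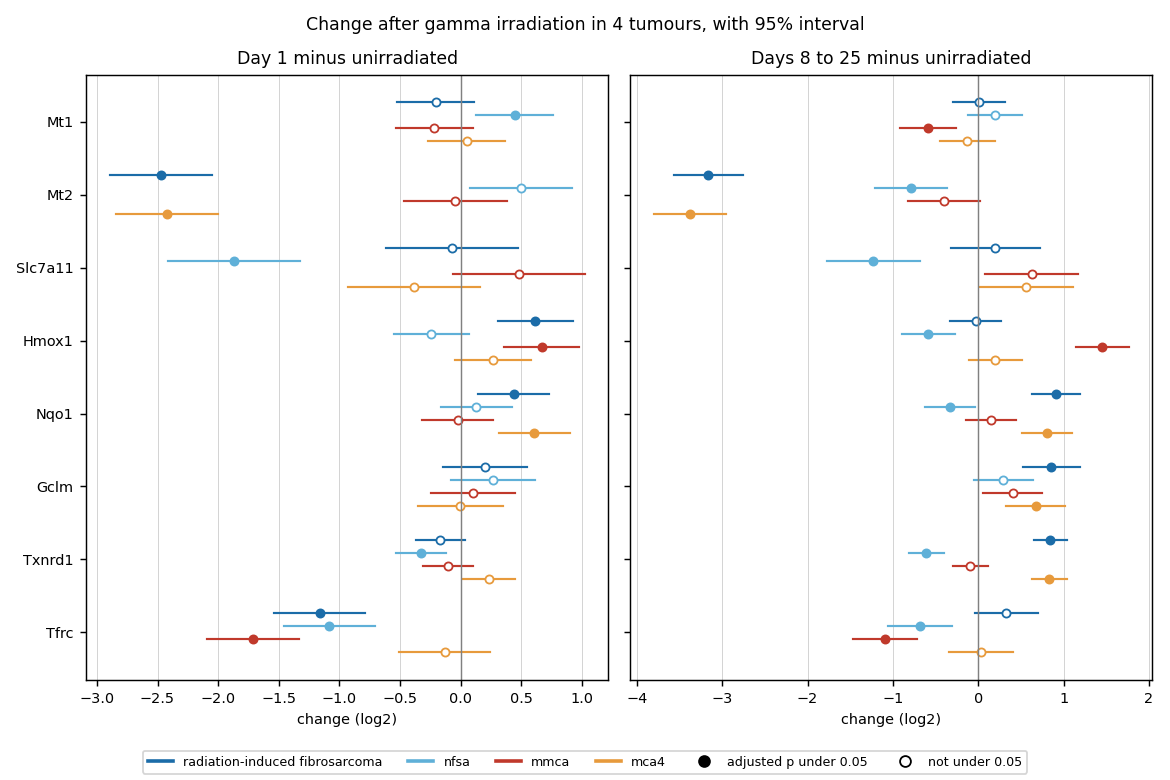
Change of each gene after gamma rays in 4 tumours (colours) on the log2 scale, on day 1 (left) and on days 8 to 25 (right) against unirradiated arrays, with 95% intervals and filled points where the adjusted p was under 0.05. The unirradiated arrays were of day 1, except those of day 9 for mmca on the right. Nqo1, Gclm and Txnrd1 sit between 0.67 and 0.91 in the radiation-induced fibrosarcoma and mca4 on the right, and Mt2 lies at -3.16 and -3.38 in these tumours.

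Single steps of time or dose gave further detail. On day 4 nfsa was lower in 7 of 8 genes (all but Gclm) than on its unirradiated arrays of day 1, against 34.3% of all genes called lower. Mt2 was 1.21, 1.07 and 1.18 at 30 Gy and 0.92, 0.79 and 1.77 at 50 Gy against 2.15 and 2.43 (-1.14 ± 0.212 SE, adjusted p = 4.24e-06). Tfrc was 1.41, 1.57 and 1.24 and 1.90, 1.53 and 1.00 against 2.17 and 2.63 (-0.96 ± 0.189 SE, adjusted p = 1.25e-05). Slc7a11, Hmox1 and Txnrd1 gave -1.17, -0.73 and -0.62, while the calls of Mt1 (-0.42) and Nqo1 (-0.41) were lost without unirradiated replicate 2 (adjusted p = 0.321 and 0.612). In the mean of days 4 and 9, 50 Gy was below 30 Gy in 7 of 8 genes (all but Slc7a11, 29.8% of all genes called lower). Mt1 on day 9 was 6.40, 6.35 and 6.34 at 50 Gy against 8.45, 7.86 and 7.23 at 30 Gy. On day 4 it was not lower, with 6.55, 6.31 and 7.19 at 50 Gy against 6.58, 6.13 and 6.18 at 30 Gy. For Mt2 and Tfrc the arrays of the doses also overlapped on day 4 but not on day 9. The calls of Mt2 and Hmox1 were lost without replicate 1 of 30 Gy day 9 (adjusted p = 0.251 and 0.301) and that of Gclm without replicate 3 of 50 Gy day 4 (0.326). Quantile normalization, with a shift of 0.12 in the median over all genes, also left these 3 and Mt1 uncalled (Mt1 from -0.55 to -0.20, adjusted p = 0.0982).

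In mca4 after 50 Gy, Tfrc was higher on day 41 (3.38 and 3.53) than on day 25 (1.95, 1.43 and 2.25), a change of 1.58 ± 0.211 (SE, adjusted p = 2.41e-08). Nqo1 went the other way, from 1.87, 1.56 and 1.73 to 1.02 and 1.02 (-0.70 ± 0.164 SE, adjusted p = 0.000616). Neither overlapped. In this step 4 of 8 genes passed, against 33.2% of all genes. The others were Mt1 (0.68, adjusted p = 0.00214, but 0.432 after quantile normalization) and Hmox1 (-0.52, adjusted p = 0.0167, but 0.214 without replicate 2 of day 41). Mitosis genes averaged 2.60 to 3.20 on day 25 and 3.39 to 3.40 on day 41.

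Growth without irradiation in mmca, day 9 against day 1, changed 1 of 8 genes (21.2% of all genes). This was Nqo1, at -0.62 ± 0.18 (SE, adjusted p = 0.00886), and the call was lost without replicate 1 of day 9 (adjusted p = 0.243). At an unadjusted p under 0.05 there were 4 (Mt1, Hmox1, Nqo1 and Tfrc), with Tfrc at -0.58 (adjusted p = 0.0629) and Mt1 at 0.48 (adjusted p = 0.0651). Irradiated at 30 Gy and set against the day 9 controls, mmca had 4 called genes of 8 (23.0% of all genes), of which Hmox1 (1.35 ± 0.174 SE, adjusted p = 6.07e-09) held without any 1 array, while Nqo1, Gclm and Tfrc (0.45, 0.55 and -0.56) were each lost without a day 9 control (adjusted p = 0.462, 0.156 and 0.6 without replicates 1, 1 and 2). In scc7 none of the 8 genes was called by limma from day 8 to 23 or from day 23 to 35, where 2.25 and 1.13% of all genes were, and at an unadjusted p under 0.05 there were 0 and 1 (Hmox1). In nrs1 Nqo1 alone passed between day 8 (4.05, 4.31 and 3.77) and day 15 (3.97, 3.22 and 3.41). Its change was -0.51 ± 0.147 (SE, adjusted p = 0.0152), against 12.8% of all genes called. It did not pass without replicate 2 of day 15 (adjusted p = 0.137). In both scc7 and nrs1 the arrays of day 8 had received a lower dose than the later arrays. Dose and time thus cannot be told apart in the steps that start at day 8.

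The carbon ion experiment followed mmca and mca4 from hour 6 to day 20 after 30 Gy, with 2 arrays per tumour and time. In the mean of both tumours Hmox1 was higher from hour 6 on, Tfrc was lower from day 3 and Txnrd1 by day 5, and Nqo1 was higher at day 1 and lower at day 20. There 1 of 8 genes passed at hour 6, 2 at day 1, 3 at day 3, 4 at day 5 and 6 at day 20, against 9.54, 8.00, 42.9, 60.6 and 71.0% of all genes. No gene of the 8 passed for a difference between the tumours at any time (limma, with 0.00, 0.193, 0.293, 0.162 and 0.286% of all genes called), and at an unadjusted p under 0.05 there was at most 1 per time (Tfrc at days 1 and 3, Hmox1 at day 20). Since the arrays under these 2 labels hardly differed without irradiation either (2.71% of genes), this does not show that mmca and mca4 respond alike. Fitted to the carbon arrays alone, Tfrc passed at days 1, 3 and 5 and in their mean and Mt2 and Hmox1 passed at day 20, with the fall of Tfrc smaller in mmca by 0.69 (adjusted p = 7.53e-05) over days 1 to 5.

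Hmox1 in mmca was 3.04 and 3.12 without irradiation, 4.01 and 4.15 at hour 6, 3.50 and 3.59 at day 1, 4.09 and 4.09 at day 3, 4.25 and 4.35 at day 5 and 4.36 and 4.53 at day 20. In mca4 it was 3.63 and 3.69, then 4.10 and 4.31, 4.14 and 4.15, 4.43 and 4.41, 5.01 and 4.81 and 4.42 and 4.43 at the same times. Every irradiated array exceeded the controls of its tumour. The mean change was 0.77 ± 0.135 (SE, adjusted p = 2.2e-05) at hour 6. It was 0.47 (adjusted p = 0.017) at day 1, a call lost without mmca replicate 2 of day 1 (adjusted p = 0.0705). Later means were 0.88 ± 0.135 (SE, adjusted p = 1.29e-07) at day 3, 1.23 ± 0.135 (SE, adjusted p = 1.85e-12) at day 5 and 1.06 ± 0.135 (SE, adjusted p = 1.21e-10) at day 20.

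Macrophage markers did not rise with Hmox1 at hour 6, when 1 of 12 was higher and 3 lower (9.54% of all genes called in either direction), with array means of 3.88 to 3.94 in mmca and 3.52 to 3.67 in mca4 against 4.00 to 4.12 and 3.83 to 3.90 without irradiation. At days 3, 5 and 20 all 12 were higher (42.9, 60.6 and 71.0% of all genes called in either direction), reaching 5.79 to 5.80 and 5.97 to 6.12 at day 20, and their part in the later Hmox1 levels was not tested.

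In mmca Tfrc went from 2.66 and 2.77 without irradiation to 2.18 and 2.20 at day 3, 1.94 and 1.96 at day 5 and 0.71 and 0.81 at day 20. Mca4 went from 3.30 and 3.15 to 2.10 and 1.86, 1.94 and 1.82 and 1.05 and 0.74 at these times. From day 3 on the irradiated arrays lay below all controls of their tumour. The mean change was -0.89 ± 0.163 (SE, adjusted p = 7.84e-06) at day 3, -1.05 ± 0.163 (SE, adjusted p = 6.77e-08) at day 5 and -2.14 ± 0.163 (SE, adjusted p = 2.56e-19) at day 20, the last a 4.41-fold fall. Hour 6 did not pass (-0.18, adjusted p = 0.565), nor did day 1 (-0.48, adjusted p = 0.0528). Taken alone, mca4 was already called lower at day 1 (-0.87 ± 0.231 SE, adjusted p = 0.0288), though leaving out each of its 4 arrays in turn ended the call (adjusted p = 0.101 to 0.32), while mmca gave -0.094 (adjusted p = 0.877). All 9 mitosis genes tested were lower at days 3, 5 and 20 (25.6, 38.5 and 43.7% of all genes lower), with array means of 3.57 to 3.71 and 3.45 to 3.51 without irradiation and 1.59 to 1.64 and 1.72 to 1.77 at day 20. Red blood cell markers, of which 3 of 8 were tested, gave 2 lower at day 20 (43.7% of all genes lower). Skeletal muscle markers rose in 11 of 11 (71.0% of all genes called in either direction). The part of these cells in the fall was not tested.

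Txnrd1 was 4.91 and 4.84 in mmca and 4.64 and 4.82 in mca4 without irradiation. At day 5 it was 4.16 and 4.18 in mmca and 4.38 and 4.10 in mca4, and at day 20 4.08 and 4.11 in mmca and 3.99 and 4.11 in mca4, below all controls. The mean change was -0.60 ± 0.0887 (SE, adjusted p = 2.19e-08) at day 5 and -0.73 ± 0.0887 (SE, adjusted p = 3.33e-11) at day 20. A weak call at day 3 (-0.21, adjusted p = 0.0466) was lost without mca4 control replicate 2 (0.184) and with the replicate number as a block (0.0508).

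Nqo1 in mmca rose from 1.46 and 1.42 to 1.95 and 2.13 at day 1 and was down to 0.87 and 1.17 at day 20. In mca4 it was 1.71 and 1.62 without irradiation, 2.12 and 2.01 at day 1 and 0.93 and 0.69 at day 20. The mean was thus 0.50 ± 0.127 (SE, adjusted p = 0.00645) at day 1 and -0.64 ± 0.127 (SE, adjusted p = 8.9e-06) at day 20, with arrays of each day on opposite sides of the controls. Its call at day 5 (-0.34, adjusted p = 0.0166) was lost without mmca replicate 1 of day 5 (0.0572). Gclm was called at day 20 only (-0.50 ± 0.151 SE, adjusted p = 0.00282). Mt2 fell at day 20, to 1.86 and 1.93 in mmca and 2.02 and 2.0 in mca4 from 2.41 and 2.48 in mmca and 2.91 and 3.02 in mca4 (-0.75 ± 0.183 SE, adjusted p = 0.000233). Mt1 and Slc7a11 passed at no time in these means, with Mt1 changes of -0.24 to 0.14 and Slc7a11 changes of -0.41 to 0.096.

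**Figure D4:**
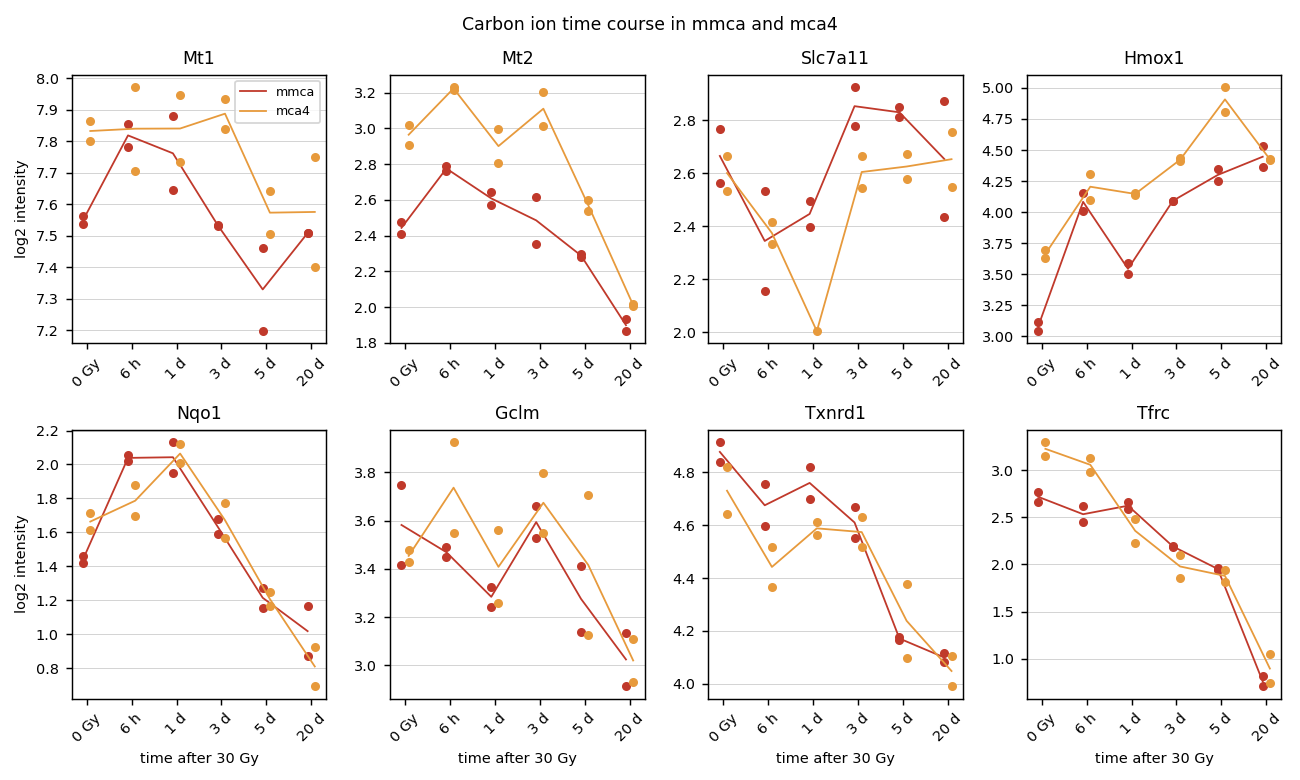
Log2 intensity of the 8 genes in mmca and mca4 without irradiation and from 6 hours to 20 days after 30 Gy of carbon ions, with points for arrays and lines through the means of each tumour. Tfrc falls from 2.66 and 2.77 in mmca and 3.30 and 3.15 in mca4 to 0.71 and 0.81 in mmca and 1.05 and 0.74 in mca4 at day 20, and Hmox1 lies above its controls at every time.

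From day 5 to day 20 after carbon ions each tumour was compared with itself. In both fibrosarcomas Mt1, Mt2 and Tfrc rose, whereas in mmca and mca4 Tfrc went on falling. The radiation-induced fibrosarcoma had 7 of 8 genes called (44.9% of all genes), nfsa 5 (19.9%), mmca 1 (8.43%), mca4 1 (15.5%) and nrs1 5 (35.7%), and scc7 from day 5 to 42 had 3 (32.5%). A difference between tumours in these steps was not tested. Single arrays decided several weaker calls: without 1 array the adjusted p rose to 0.317 for Gclm in the radiation-induced fibrosarcoma (replicate 2 of day 5), to 0.0843 for Nqo1 (replicate 1 of day 20) and 0.115 for Txnrd1 (replicate 1 of day 5) in nfsa, to 0.321 for Gclm and 0.0938 for Mt2 in nrs1 (replicate 2 of day 5), and to 0.0891 for Nqo1 in scc7 (replicate 2 of day 5).

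Mt1 in the radiation-induced fibrosarcoma was 6.20 and 6.33 at day 5 and 7.88 and 8.04 at day 20 (1.69 ± 0.195 SE, adjusted p = 3.97e-11). Mt2 moved with it, from 1.53 and 1.58 to 3.51 and 3.52 (1.96 ± 0.259 SE, adjusted p = 2.57e-09). Nfsa repeated the pattern, with Mt1 at 6.46 and 6.22 and then 7.48 and 7.56 (1.18 ± 0.195 SE, adjusted p = 2.42e-06) and Mt2 at 1.06 and 1.14 and then 2.74 and 2.65 (1.59 ± 0.259 SE, adjusted p = 1.68e-06). These rises were 2.27-fold or more and none of the pairs overlapped. In the radiation-induced fibrosarcoma both genes were also low on gamma arrays of day 8 and higher on those of day 16. Over the group means Mt1 and Mt2 correlated at r = 0.92 in the 20 carbon groups and 0.59 in the 34 gamma groups, as a description, since groups share tumours and arrays share processing.

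Tfrc rose in the radiation-induced fibrosarcoma from 0.88 and 1.06 to 2.49 and 2.47 (1.51 ± 0.231 SE, adjusted p = 1.34e-07), in nfsa from 0.91 and 0.92 to 1.81 and 1.79 (0.88 ± 0.231 SE, adjusted p = 0.003) and in nrs1 from 1.66 and 1.67 to 2.85 and 2.95 (1.24 ± 0.231 SE, adjusted p = 1.47e-05). It fell in mmca (-1.19 ± 0.231 SE, adjusted p = 0.000207) and mca4 (-0.98 ± 0.231 SE, adjusted p = 0.00159). The mitosis genes had the same directions: 8 of 9 were higher in the radiation-induced fibrosarcoma, 7 in nfsa and 8 in nrs1, and 7 were lower in mmca and 9 in mca4. In these tumours, in that order, 44.9, 19.9, 35.7, 8.43 and 15.5% of all genes were called in either direction. Their part was not tested.

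Slc7a11 rose in nrs1 from 4.22 and 4.19 to 6.13 and 5.87 (1.79 ± 0.334 SE, adjusted p = 1.45e-05). The radiation-induced fibrosarcoma gave 1.14 (adjusted p = 0.0036), lost without replicate 2 of day 20 (0.0615), and scc7 from day 5 to 42 gave 0.99 (adjusted p = 0.0169), lost without replicate 2 of day 42 (0.115). Hmox1 fell in scc7 from 6.70 and 6.94 to 5.47 and 5.46 (-1.35 ± 0.191 SE, adjusted p = 3.54e-08). In the radiation-induced fibrosarcoma it rose from 4.67 and 4.98 to 5.97 and 5.73 (1.03 ± 0.191 SE, adjusted p = 7.3e-06). Its fall in nrs1 (-0.71, adjusted p = 0.00238) was lost without replicate 2 of day 20 (adjusted p = 0.0959). Macrophage markers averaged 6.84 to 6.98 and then 6.22 to 6.30 in scc7, and 6.45 to 6.46 and then 5.74 to 5.87 in the radiation-induced fibrosarcoma, where Hmox1 and these markers thus moved in opposite directions.

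Tumours were compared at a matched dose and time, day 5 after 30 Gy of carbon ions, where each of the 6 tumours had 2 arrays. These contrasts were added after the data had been seen, so their p values are not independent of the choice. Nrs1 stood apart: Slc7a11, Nqo1, Gclm, Mt1 and Mt2 were highest there and Txnrd1 was lowest, with no overlap with any other tumour, and 7 of 8 genes passed against the mean of the other 5 tumours (66.6% of all genes). Slc7a11 was 4.22 and 4.19 in nrs1 against 2.85 and 2.81 in mmca, 2.67 and 2.58 in mca4, 1.51 and 1.37 in scc7, 0.58 and 0.77 in the radiation-induced fibrosarcoma and -0.30 and -0.16 in nfsa. The difference of nrs1 from the others was 2.74 ± 0.259 (SE, adjusted p = 2.96e-15), and from each single tumour between 1.38 and 4.44, scc7 included. In this order mmca and mca4 did not pass as different (0.20, adjusted p = 0.868, 0.255% of all genes called), nor did scc7 and the radiation-induced fibrosarcoma (-0.76, adjusted p = 0.0541 for the latter minus the former, 46.5% of all genes called).

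Nqo1 was 2.92 and 2.93 in nrs1, 1.25 and 1.16 in mca4, 1.15 and 1.28 in mmca, 0.89 and 0.70 in scc7, -0.19 and -0.23 in nfsa and -0.76 and -0.65 in the radiation-induced fibrosarcoma. Nrs1 exceeded the others by 2.47 ± 0.139 (SE, adjusted p = 2.26e-26). Gclm was 4.39 and 3.98 in nrs1 and at most 3.70 elsewhere (1.26 ± 0.165 SE, adjusted p = 4.43e-10), and its difference from mca4 was lost without mca4 replicate 2 (adjusted p = 0.105). Thus the cystine importer, the glutathione subunit and the quinone reductase were all high in nrs1. Txnrd1, another NRF2 target, was not: it stood at 3.04 and 3.12 in nrs1 and at 3.46 or more elsewhere (-0.78 ± 0.0972 SE, adjusted p = 9.76e-11). Tfrc did not pass (0.13, adjusted p = 0.542).

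On the gamma arrays at 30 Gy on day 8 nrs1 was again highest in Slc7a11, Gclm and Nqo1, by contrasts that were also added after the data had been seen. Slc7a11 in nrs1 was 5.34, 3.77 and 5.22 against 0.25 and 0.84 in scc7 and 1.16, 1.17 and 1.00 in the radiation-induced fibrosarcoma (4.23 ± 0.305 SE, adjusted p = 1.31e-20 and 3.67 ± 0.273 SE, adjusted p = 4.48e-20). Gclm was 5.58, 5.24 and 5.04 against 2.03 and 2.12 and 2.77, 2.75 and 2.77 (3.21, adjusted p = 1.12e-24 and 2.52, adjusted p = 8.79e-22). Nqo1 differed from scc7 by 2.09 (adjusted p = 6.4e-19) and from the radiation-induced fibrosarcoma by 5.07 (adjusted p = 3.04e-44). Txnrd1 in nrs1 was again lower, with differences of -0.80 (adjusted p = 6.64e-09) and -0.67 (adjusted p = 3.95e-08). Mt1 (1.06 and 1.75), Mt2 (2.21 and 2.86) and Tfrc (1.28 and 1.09) were called higher in nrs1 than in scc7 and the radiation-induced fibrosarcoma, with no overlap, while Hmox1 was called higher than in the latter alone (0.15 and 0.54). Thus 7 of 8 genes were called against scc7, where 58.5% of all genes were, and 8 of 8 against the radiation-induced fibrosarcoma, where 60.1% were. Since every nrs1 array was irradiated, its level without irradiation was not analysed here.

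The metallothioneins and Hmox1 completed this comparison. Mt1 at day 5 was 8.66 and 8.81 in nrs1 and lowest in the fibrosarcomas (6.20 and 6.33 in the radiation-induced one and 6.46 and 6.22 in nfsa), with mmca, mca4 and scc7 between. Of these, scc7 overlapped both mmca and mca4, which did not overlap each other. Mt2 had the same extremes, 3.97 and 3.74 in nrs1 and 1.06 and 1.14 in nfsa (1.92 ± 0.201 SE, adjusted p = 1.46e-13 for nrs1 against the others). Hmox1 was highest in scc7 (6.70 and 6.94), then nrs1 (6.04 and 6.21), nfsa (5.33 and 5.31), mca4 (5.01 and 4.81), the radiation-induced fibrosarcoma (4.67 and 4.98) and mmca (4.25 and 4.35). Scc7 and nrs1 differed (0.69, adjusted p = 0.00131, 56.8% of all genes called), while mca4 and the radiation-induced fibrosarcoma did not pass (-0.086, adjusted p = 0.726 for the latter minus the former, 53.6% of all genes called).

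**Figure D5:**
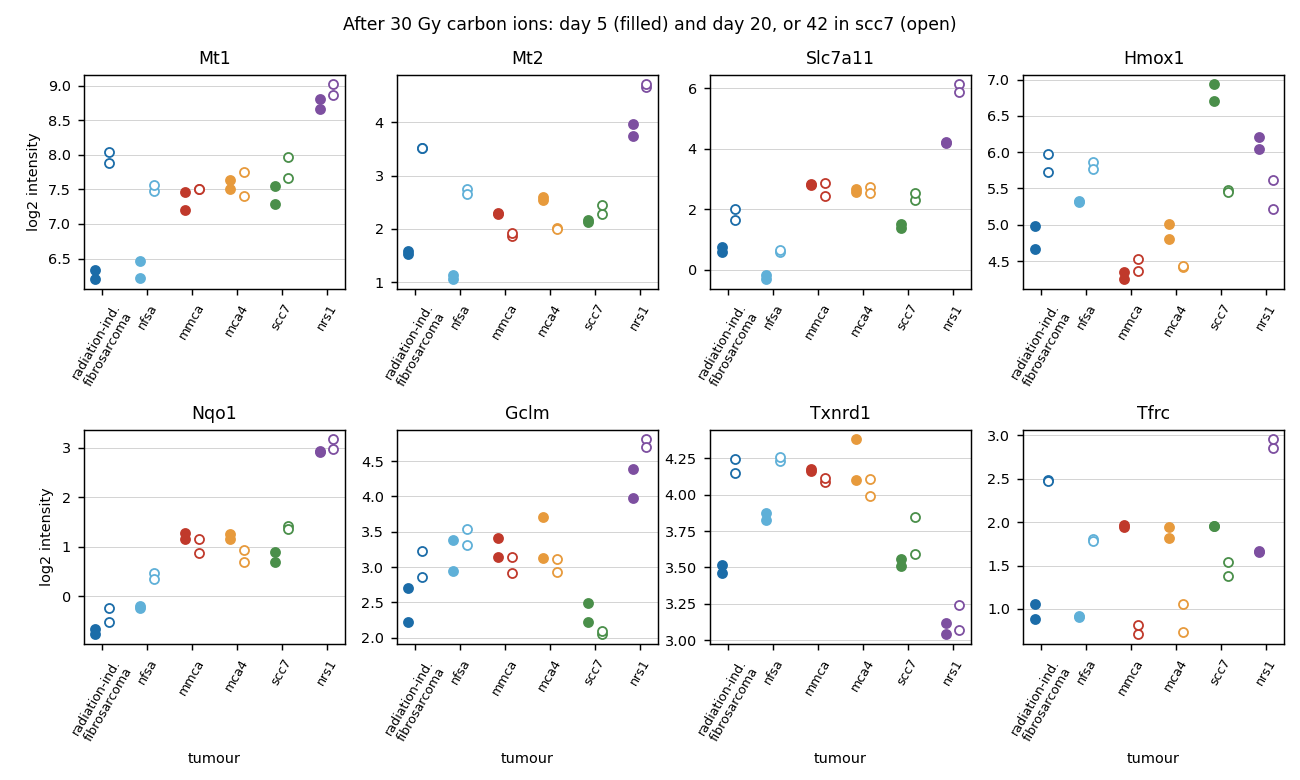
Log2 intensity of the 8 genes in the 6 tumours after 30 Gy of carbon ions, with filled points for the 2 arrays of day 5 and open points for those of day 20 (day 42 in scc7). Nrs1 is above all other tumours for Slc7a11 (4.22 and 4.19 at day 5) and below them for Txnrd1 (3.04 and 3.12), and both fibrosarcomas move up in Mt1, Mt2 and Tfrc.

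Genes with the most similar pattern were found by Pearson correlation over the 34 gamma group means, and r is given there and then over the 20 carbon group means. Most like Hmox1 were Adam8 (r = 0.94 and 0.91), Clec4d (r = 0.93 and 0.93) and Carhsp1 (r = 0.93 and 0.87). For Tfrc they were Egln3 (r = 0.87 and 0.85), Csnk2a1 (r = 0.84 and 0.81) and Bhlhe40 (r = 0.83 and 0.60), and for Mt1 Ero1a (r = 0.82 and 0.81), Ddit4 (r = 0.81 and 0.66) and Nrip1 (r = 0.81 and 0.73). The closest gene was Trappc5 (r = 0.83 and 0.83) for Mt2, Mrpl10 (r = 0.89 and 0.82) for Slc7a11 and Stxbp2 (r = 0.92 and 0.42) for Nqo1. For Gclm it was Tiam1 (r = 0.91 and 0.79) and for Txnrd1 Rbm6 (r = 0.94 and 0.88). Groups share tumours and arrays, so these values are descriptions.

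Other genes of the same pathways, apart from the 8, were counted from lists of known members. Of 27 antioxidant and glutathione genes tested, 10 rose, 7 fell and 10 did not pass 1 day after gamma rays, when 59.4% of all genes were called in either direction (median 0.054, all genes -0.038). Gsr, glutathione reductase, gave -0.56 ± 0.108 (SE, adjusted p = 7.38e-06) and Gsta4, a glutathione transferase, 0.56 ± 0.0954 (SE, adjusted p = 5.79e-07). On days 8 to 25, 13 rose, 6 fell and 8 did not pass (median 0.14), against 73.6% of all genes called, so at both times the share was near the background. Late after gamma rays Nfe2l2, which encodes NRF2, rose by 0.85 ± 0.0561 (SE, adjusted p = 2e-22), as did its competitor Bach1 (0.60 ± 0.0477 SE, adjusted p = 1.21e-18). At day 20 after carbon ions 10 rose, 3 fell and 14 did not pass, against 71.0% of all genes called, the risers including Srxn1, sulfiredoxin, at 1.65 ± 0.122 (SE, adjusted p = 4.26e-20) and Osgin1 at 1.91 ± 0.151 (SE, adjusted p = 1.07e-18). Srxn1 rose while Txnrd1, Gclm and Nqo1 were lower on those arrays.

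Of 17 iron handling genes, 2 rose, 5 fell and 10 did not pass on day 1 after gamma rays and 6 rose, 7 fell and 4 did not pass on days 8 to 25 (medians -0.055 and 0.047), against the same 59.4 and 73.6% of all genes. Cp, the copper ferroxidase ceruloplasmin, rose by 2.25 ± 0.139 (SE, adjusted p = 4.63e-24) late after gamma rays and by 2.28 ± 0.243 (SE, adjusted p = 2.53e-13) at day 20 after carbon ions. Heph, a related ferroxidase, gave 1.64 ± 0.151 (SE, adjusted p = 2.62e-15) at day 5 after carbon ions. At both day 5 and day 20 after carbon ions 3 of the 17 rose and 5 fell, against 60.6 and 71.0% of all genes called. The called falls included Cybrd1 (-0.77 and -0.78), Pcbp1 (-0.64 at day 5) and Pcbp2 (-0.87 at day 20). Zinc handling genes, of which 9 of 15 were tested, gave 6 higher and 1 lower on days 8 to 25 (median 0.30, all genes -0.030). The share called in either direction was near the background of 73.6%. On day 1 after gamma rays 2 were higher and 3 lower, against 59.4% of all genes called. At day 3 after carbon ions 2 were higher and 1 lower, against 42.9%. Slc30a1, a zinc exporter known like the metallothioneins as an MTF1 target, rose by 0.40 ± 0.0713 (SE, adjusted p = 1.46e-06) on day 1 after gamma rays and 1.16 ± 0.124 (SE, adjusted p = 3.79e-12) at day 3 after carbon ions, where Mt1 and Mt2 did not pass (0.019 and 0.094).

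Genes of the amino acid stress response, the program to which Slc7a11 also belongs through the factor ATF4, were mostly lower at day 20 after carbon ions. Of 16 tested, 4 were lower at day 1, 7 at day 3, 10 at day 5 and 13 at day 20, and 1 was higher at each time, while 3.83, 25.6, 38.5 and 43.7% of all genes were called lower. The list median at day 20 was -0.86 against -0.14 for all genes. Phgdh and Psat1, enzymes of serine synthesis, gave -2.20 ± 0.131 (SE, adjusted p = 2.19e-24) and -1.83 ± 0.135 (SE, adjusted p = 3.63e-20), and Cth, cystathionine gamma-lyase, gave -2.50 ± 0.197 (SE, adjusted p = 9.82e-19). Slc7a5, an amino acid transporter, gave -1.80 ± 0.154 (SE, adjusted p = 3.37e-17), against 0.02 (adjusted p = 0.944) for Slc7a11 on the same arrays. After gamma rays on day 1, 8 of 16 were lower and 2 higher, with 34.7% of all genes lower. On days 8 to 25 the list was mixed, with 5 higher, 7 lower and 4 not passed (median -0.077), against 73.6% of all genes called in either direction.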

How the data were processed

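Tumour RNA was measured on 121 1-colour CodeLink arrays with Cy5 label, per the labels. The intensity values are those the authors deposited, on a linear scale, and the background correction, scaling and spot filter behind them are not given in the sources used here. Values were floored at 0.1269 (percentile 5 of positive values, which also takes in 1831 carbon values at or below 0) and set to log2, and missing values stayed missing. Of 36227 probes, 21615 had 1 gene symbol in the platform annotation, 681 several and 13931 none. Per gene the brightest probe with values on at least 90% of arrays was kept, and probes at or below percentile 20 of mean log2 intensity were left out.

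All 54 group means were fitted together in limma 3.58.1 (R 4.3.3) with a mean-variance trend and 67 residual degrees of freedom. Contrasts were tested 2-sided with Benjamini-Hochberg adjustment over the 12962 genes. The limited number of arrays per group sets the precision. The code was tested on simulated data. Alternatives were quantile normalization, missing values at the floor, no filter, a floor at percentile 10, no trend, array weights, each beam alone, a replicate block, pooled mmca controls, 1 value per group and leaving out each array. The 8 genes and all lists were chosen with earlier results of these data known. The 8 were the genes named, by value or by count, in each comparison. Of the marker lists, macrophage, mitosis, red blood cell and skeletal muscle genes were used. Pathway examples were taken from the called genes with the largest changes, and similar genes by Pearson correlation over gamma group means.

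Replicate numbers come from the labels. Deviations from the group means correlated over 0.1 between same-numbered arrays for all 15 pairs of groups in carbon mca4 (median r 0.193). In carbon mmca they did so for 12 of 15 (median r 0.279), so the numbers may pair arrays in both. Elsewhere the median r lay between -0.306 and 0.150. The main model did not use this pairing, and the replicate block was an alternative. Motifs were searched with Python 3.11.15, and figures were drawn with matplotlib 3.10.9.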

Additional observations from a re-analysis of the deposited data

Results flagged for a closer look

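Changes after gamma rays that differed among the radiation-induced fibrosarcoma, mmca, nfsa and mca4 by limma's moderated F test were those of 7 genes on day 1 and the same 7 on days 8 to 25. Each value is the range between the highest and the lowest of the 4 tumour changes, on the log2 scale. On day 1 the range was 2.97 for Mt2, 2.34 for Slc7a11, 1.58 for Tfrc, 0.910 for Hmox1, 0.666 for Mt1, 0.632 for Nqo1 and 0.558 for Txnrd1. On days 8 to 25 it was 2.98 for Mt2, 2.04 for Hmox1, 1.86 for Slc7a11, 1.45 for Txnrd1, 1.42 for Tfrc, 1.24 for Nqo1 and 0.783 for Mt1. Gclm did not pass (adjusted p = 0.751 and 0.106). The causes of these differences were not tested. Groups held 2 or 3 arrays, too few for a test of single outlying arrays.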

How the results depend on the processing

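Of 315 called changes of the 8 genes, quantile normalization ended 32 calls, no filter on dim probes 3, no mean-variance trend 1, array weights 7, each beam fitted alone 11, the replicate block 20 and the higher floor 0, and 67 were lost without some 1 array. No called change turned sign when an array was left out. Quantile normalization after filling missing values with the floor ended 125 calls, 107 of them of Mt1, Slc7a11, Txnrd1 and Tfrc, which each lack 1 value. The floor was not tried without quantile normalization. Under that setting the counts of called values were 13 (23 as reported) for single doses on day 1, 3 (7) for differences between tumours on day 1, 11 (24) for single steps, 14 (24) for the carbon time course of each tumour, 1 (0) for its differences between mmca and mca4, and 12 (27) for late minus day 5. Those carbon differences gave 3 calls with array weights and 6 with each beam alone, and 1 value per group left 1 of 5 on day 1 and 2 of 6 on days 8 to 25. In that last setting 1014 and 3543 of all genes were still called. Among called changes, signs turned for Mt1 at 70 Gy (0.082 after quantile normalization, 0.063 with the floor too), for Hmox1 at 70 minus 30 Gy (0.060) and for Mt1 in mmca at carbon day 20 (0.40, adjusted p = 0.0366) after quantile normalization, and with the floor too for Txnrd1 at 70 Gy (-0.41), at 70 minus 30 Gy (-0.15) and for fibrosarcomas minus mammary carcinomas on day 1 (0.41). The cause was not tested. Among values not called in either setting, 34 changed sign after quantile normalization and 33 with the floor too.

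For the replicate block, no other call than these 20 was lost and 7 were gained, and in the carbon means of mmca and mca4 it lost Txnrd1 at day 3 (adjusted p = 0.0508). Each gene had 1 usable probe, so a second probe could not be tried.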
